A study of Mus musculus with 8 samples.

Results

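The zinc finger protein genes described here are the 199 mouse protein-coding genes whose symbol is Zfp followed only by digits and whose mean RPKM (reads scaled by gene length and library size) over the 8 libraries was at least 1. They were selected on that measured value, out of 362 protein-coding genes with such a symbol and 38293 gene identifiers in all. Of the other 163, 20 had no read in any library. The mean was taken over both groups, so the selection used the level of a gene and not the difference between the groups. The genes just inside the limit were Zfp719 at a mean RPKM of 1.036, Zfp708 at 1.047 and Zfp61 at 1.055, and those just outside were Zfp105 at 0.988, Zfp40 at 0.987 and Zfp101 at 0.987.

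The tissue was left ventricle, taken from C57BL/6J mice after ischemia-reperfusion, a model of a treated heart attack made by tying the left anterior descending artery and then letting blood back. All hearts received 2 intramyocardial injections of 10 µl of UPy-PEG hydrogel, a gel of polyethylene glycol chains held together by hydrogen-bonding end groups. In 4 libraries the hydrogel carried no drug (the hydrogel group) and in 4 it carried antimiR-195, an inhibitor of the microRNA miR-195 (the antimiR-195 group). Hearts were taken 3 days after injury, and there was no uninjured or uninjected group among the libraries analysed here. Polyadenylated RNA from the whole ventricle was sequenced, so every value is an average over all its cell types, and fewer cells of a type cannot be told apart from less RNA per cell. Whether each library is another animal is not stated in the labels. The p-values here set the difference between the groups only against the spread of libraries within a group.

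A classical zinc finger of the C2H2 kind is a short loop that holds a zinc ion with a pair of cysteines and a pair of histidines, and rows of such fingers read DNA sequence, or in some proteins bind RNA. Many of these proteins also carry a KRAB domain, which recruits Trim28 (KAP1) and through it the histone methyltransferase Setdb1 and HP1 proteins, and this complex silences retroelements and marks imprinted regions. The family grew by local duplication, so its KRAB genes often lie in clusters of similar sequence. Members without a KRAB domain include promoter activators, developmental regulators and RNA-binding proteins.

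miR-195 belongs to the miR-15 family, whose members share the seed (bases 2 to 8 of the microRNA), the stretch that pairs with target messengers. The mature sequences below (RefSeq, GRCm38.p6) show the targeted microRNA and 5 of the 9 other mouse microRNAs in the table with the same seed, in capitals. Those not shown are miR-195b, miR-6342, miR-6353 and miR-6419.
mmu-miR-195a-5p: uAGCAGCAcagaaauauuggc
mmu-miR-15a-5p: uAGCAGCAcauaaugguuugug
mmu-miR-15b-5p: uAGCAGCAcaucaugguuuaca
mmu-miR-16-5p: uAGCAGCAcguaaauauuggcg
mmu-miR-497a-5p: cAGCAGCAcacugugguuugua
mmu-miR-322-5p: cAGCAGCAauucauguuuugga
miR-195a and miR-497a lie close together, at chr11:70235062-70235082 and chr11:70234730-70234751 on the plus strand. The letters that pair with this seed are TGCTGCT, with or without a following A, or GCTGCTA. They were searched on the sense strand of the longest annotated 3′ untranslated region (UTR) of each gene. That region was taken over all coding transcripts of the gene in GENCODE M21 and held at least 50 bases. Such a region was found for 196 of the 199 genes. At least 1 match was present in 70 of them (35.7%), against 28.5% of 12868 tested genes with a 3′ UTR. The median length of that region was 1442 bases in the zinc finger genes and 1205 bases over tested genes. Within the zinc finger genes it was 2629 bases in the 70 and 1066 bases in the 126 without a match.

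The longest match, TGCTGCTA, was found in 8 zinc finger genes (4.08%, against 4.59% of tested genes). Of these, 7 are shown, each read on the strand of the gene, because they are the sites with the fullest seed pairing, with the match in capitals at the 3′ end.
Zfp106, chr2:120509813-120509836: gacatacagtggtttgTGCTGCTA
Zfp362, chr4:128774173-128774196: ttggccagaatgttggTGCTGCTA
Zfp449, chrX:56365461-56365484: ccaggtccctgtatgaTGCTGCTA
Zfp467, chr6:48438741-48438764: accagagggtgcacgaTGCTGCTA
Zfp507, chr7:35774291-35774314: tgaaagcagactgcagTGCTGCTA
Zfp622, chr15:25997359-25997382: tgccgaatggttccttTGCTGCTA
Zfp715, chr7:43296745-43296768: tatatgtatgtacatgTGCTGCTA
The gene with an 8-base match that is not shown is Zfp438. Zfp651 had the most matches of any kind, 4 in a region of 3973 bases. A match is a description of the letters and not a measured binding site.

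The libraries held 16872968 to 22751753 reads assigned to genes, and the zinc finger genes took 0.278% to 0.378% of them. Every one of the 199 passed the filter on low counts, as did 13773 other genes, so that 13972 were tested with edgeR's quasi-likelihood test. The median zinc finger gene had a mean of 193 reads per library, and 4 genes (Zfp14, Zfp526, Zfp612 and Zfp935) fell under 20 reads, each in antimiR-195 replicate 2. Of the 48 marker genes checked for 9 cell types, none was at 0 in all libraries, and the summed cardiomyocyte markers reached 66071 to 86608 CPM (counts per 1000000 reads assigned to genes, after scaling between libraries). antimiR-195 replicate 2 stood apart from the other libraries across the transcriptome: it was the lowest library for 33.1% and the highest for 30.8% of all genes tested. Counts by direction are also given without it, as are the fold changes of several named genes that it moved.

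Most zinc finger genes were expressed at low levels. Their mean RPKM had a median of 2.66, against 4.40 over all genes tested, and ran from 1.04 to 46.3. The 2 medians are not at the same limit. The zinc finger genes were selected at a mean RPKM of at least 1, and the genes tested also include genes under it. There were 69 genes between 1 and 2, 91 between 2 and 5, 27 between 5 and 10 and 12 at 10 or more. The most abundant was Zfp106, an RNA-binding protein needed for the upkeep of motor neurons and muscle, at a mean of 46.3 and a range of 24.9 to 64.6 over libraries. Zfp706, which encodes a protein of only 76 residues and was described in stem cell self-renewal, followed at 28.4 (23.8 to 33.9). Their ranges over the libraries met only between 24.9 and 33.9. Then came Zfp36 (tristetraprolin, which binds AU-rich elements and speeds the decay of inflammatory messengers such as Tnf) at 16.4, Zfp639 at 16.2, Zfp358 at 15.4, Zfp651 (also called Zbtb47) at 15.4, Zfp771 at 14.5, Zfp768 at 13.8, Zfp91 (a ubiquitin ligase of the non-canonical NF-κB pathway) at 12 and Zfp207 (BuGZ, which binds Bub3 and spindle microtubules) at 11.8. From Zfp36 downward neighbours in this order did not separate, since Zfp36 itself ranged from 13.3 to 20 and Zfp771 from 8.95 to 21.9 over the libraries.

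The KRAB class and the rest are set side by side here with no test. By a residue pattern for the KRAB A box together with a C2H2 finger match, 78 of the 199 (39.2%) were counted as KRAB genes and 121 as other. A gene counted as other may still hold a divergent box, or a box in a protein without a finger match. The KRAB share was 51.7% among all 362 genes with such symbols and 66.9% among the 163 under the RPKM limit. The median mean RPKM was 1.90 in the KRAB class and 3.28 in the rest, and 3 KRAB genes against 36 others reached 5. The most abundant KRAB gene was Zfp386 at 11.1. The KRAB class had a median of 12 C2H2 fingers and a coding GC content of 43.2%, the others 7 fingers and 55%. In all, 193 of the 199 proteins matched the finger pattern, and the 6 that did not included Zfp36, whose fingers are of another kind (CCCH), and Zfp703, a regulator of the NET family. Zfp142 had the most fingers, 36.

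The 199 genes were unevenly spread over the genome. Chromosome 7 held 46 of them (23.1%, against 7.62% of tested coding genes) and chromosome 17 held 24 (12.1% against 4.80%). With gaps of at most 100000 bases, 68 genes lay in 20 clusters, which took in 52.6% of the KRAB class and 22.3% of the others. The largest cluster, at chr7:29768552-30169750 (GRCm38), held 10 genes: Zfp84, Zfp30, Zfp790, Zfp27, Zfp74, Zfp568, Zfp14, Zfp566, Zfp260 and Zfp146. Reads that align to several copies were not counted, so values of near-identical neighbours rest on the sequence that differs between them. The span of 30 genes overlapped that of another coding gene in the table, among them Zfp91 with Cntf, Zfp593 with E130218I03Rik and Zfp612 with Gm17720. Zfp91 lies on the strand of Cntf, while Zfp593 and Zfp612 lie opposite to the coding genes they overlap. The strand setting of the counting is not given in the sources used here. Reads of such pairs may thus be assigned to the wrong gene or left out as ambiguous.

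The promoter windows of 163 of the genes (200 windows of 250 bases before to 50 after the start, RefSeq, GRCm38.p6) had a median GC content of 57.5%, against 60.7% for tested genes and 52.7% for all windows. The ETS word CCGGAAGT, read on both strands, was present in 11.5% of the windows, against 7.48% in tested genes and 3.89% in all 32851. The NFY word GCCAAT was in 23.5%, and in 33.8% of the windows of the KRAB class, against 18.6% in tested genes and 14.7% in all. The TATA word TATAAA was in 6.50%, against 7.51% and 13.6%.

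No zinc finger gene passed the test for a difference between antimiR-195 and drug-free hydrogel. With edgeR's quasi-likelihood test and Benjamini-Hochberg adjustment, 0 of the 199 were called at an adjusted p below 0.05, as were 0 of all 13972 genes (0% called), with no adjusted p under 0.9999. Unadjusted, 0 zinc finger genes had a p below 0.05, against 178 of all genes (1.27%). DESeq2 and limma-trend on log2(RPKM + 0.1) called 0 zinc finger genes as well, with 0 at an unadjusted p below 0.05 in each. The log2 fold changes ran from -0.36 to 0.46 with a median of -0.02 (0.01 over all genes tested), and 191 of the 199 lay within 0.25 of zero. The median standard error (SE) was 0.17.

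By direction, 83 log2 fold changes were above zero and 116 below, a positive share of 41.7% against 52.4% over all genes tested. The size and the sign of that lean changed with the library left out. Without antimiR-195 replicate 2, 115 of the 199 were positive, with 48.7% over all genes, and the median moved from -0.02 to 0.04. Without hydrogel replicate 2, 101 were positive with a median of 0.01. The lean grew without antimiR-195 replicate 3 (56 positive, median -0.08) and without antimiR-195 replicate 4 (61 positive, median -0.06). Leaving out any of the remaining libraries gave 71 to 93 positive, with medians from -0.04 to -0.01. With antimiR-195 replicate 2 left out, 0 zinc finger genes had an unadjusted p below 0.05 in edgeR, against 260 of all genes (1.84%), and 0 of 14107 genes were called.

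**Figure D1:**
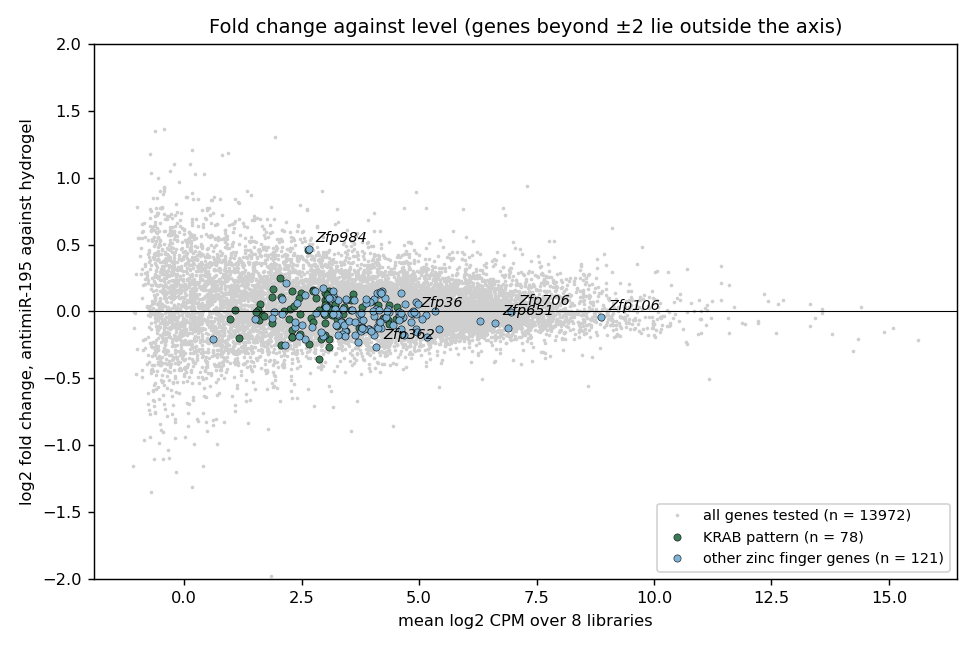
Fold change of antimiR-195 against hydrogel (vertical axis, log2) by mean log2 CPM over 8 libraries (horizontal axis), with all 13972 genes tested in grey, the KRAB class in green and the other zinc finger genes in blue. The zinc finger genes lie between -0.36 and 0.46, within the cloud of the other genes at the same level.

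The groups did not overlap in 2 of the 199 genes (1.01%, against 1.07% of all genes tested). Zfp984, a KRAB gene in a cluster on chromosome 4, had 6.03, 2.49, 6.37 and 6.77 CPM in hydrogel replicates 1 to 4 and 6.95, 7.71, 7.18 and 7.97 in antimiR-195 replicates 1 to 4. Every antimiR-195 library was above every hydrogel library, but hydrogel replicate 2 lay far below the other 3 of its group. The log2 fold change was 0.46 ± 0.26 (SE, n = 4 libraries per group, edgeR adjusted p = 0.9999), and 0.22 ± 0.15 without that library. Zfp27, in the large cluster on chromosome 7, had 10.8, 10.5, 10.9 and 11 CPM with hydrogel and 9.24, 8.42, 10.5 and 10.4 with antimiR-195. Its antimiR-195 replicate 3 came within rounding of hydrogel replicate 2, and the log2 fold change was -0.17 ± 0.12.

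Among the genes of highest unadjusted rank, Zfp362 had 16.9, 20.2, 17.6 and 19.3 CPM with hydrogel and 12.8, 14.7, 14.8 and 19.3 with antimiR-195. Of its antimiR-195 libraries 3 were below all hydrogel libraries and replicate 4 was among them. The log2 fold change of -0.26 ± 0.14 carried the smallest unadjusted p of the 199 genes, 0.0935 (edgeR, adjusted p = 0.9999). Zfp746 (PARIS, a repressor of PGC-1α) had 14.1, 15.1, 14.0 and 12.6 CPM with hydrogel and 12.6, 9.57, 11.9 and 13.6 with antimiR-195, a log2 fold change of -0.23 ± 0.14 with overlapping groups. Zfp758, a KRAB gene on chromosome 17, had the most negative log2 fold change, -0.36 ± 0.22. Its 4 hydrogel libraries had 7.46 to 8.80 CPM, and its antimiR-195 libraries had 6.05, 3.99, 9.46 and 6.66, so the group with the drug spanned the other on both sides. The value was -0.19 ± 0.17 without antimiR-195 replicate 2 and -0.59 ± 0.20 without replicate 3. Zfp867 (-0.24 ± 0.16), Zfp703 (-0.17 ± 0.12), Zfp740 (-0.19 ± 0.14), Zfp3 (-0.20 ± 0.14) and Zfp768 (-0.15 ± 0.11) also overlapped. Without antimiR-195 replicate 2 the values were -0.15 for Zfp746, -0.16 for Zfp867, -0.15 for Zfp703, -0.09 for Zfp740, -0.18 for Zfp3 and -0.11 for Zfp768.

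Zfp593, a factor of ribosome biogenesis, had the other large positive value. It had 6.45, 4.69, 5.86 and 4.88 CPM with hydrogel and 8.12, 11.8, 4.43 and 5.87 with antimiR-195, a log2 fold change of 0.46 ± 0.27. antimiR-195 replicate 2 was the highest library and replicate 3 the lowest of all 8, and the value was 0.16 ± 0.21 without replicate 2 and 0.65 ± 0.24 without replicate 3. Zfp281, a pluripotency regulator, stood at 0.15 ± 0.12 and Zfp521, a cofactor that binds Ebf1, at 0.15 ± 0.12. Zfp1 (0.15 ± 0.13), Zfp2 (0.21 ± 0.18), Zfp35 (0.15 ± 0.14) and Zfp653 (0.18 ± 0.17) completed the genes of smallest p on the positive side, all with overlapping groups.

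Of the RNA and nuclear body proteins, 7 of 8 listed genes were expressed above the limit, 3 with positive and 4 with negative values from -0.07 to 0.07, and none was called. antimiR-195 replicate 2 was the lowest library for 4 of the 7, and without it 6 were positive. Zfp106 had 466, 513, 483 and 507 CPM with hydrogel and 425, 251, 680.1 and 553 with antimiR-195. The hydrogel libraries lay close together (492 ± 22.0, SD, n = 4), while the antimiR-195 libraries held both the lowest and the highest of all 8 (477 ± 183). The log2 fold change was -0.05 ± 0.25, and 0.16 ± 0.14 without antimiR-195 replicate 2. Zfp36 had 29.5, 30.6, 25.1 and 33.4 CPM with hydrogel and 35.0, 26.7, 28.4 and 26.7 with antimiR-195, which overlapped, with hydrogel replicate 3 the lowest and antimiR-195 replicate 1 the highest of 8 (-0.02 ± 0.13). Zfp207 had 82.1, 79.0, 77.3 and 84.0 CPM against 88.2, 56.6, 79.0 and 82.6, with antimiR-195 replicate 2 alone below the rest (-0.07 ± 0.14). Zfp622, a factor in maturation of the large ribosomal subunit, stood at 0.07 ± 0.16, Zfp346 (JAZ, which binds double-stranded RNA) at 0.02 ± 0.14 and Zfp638 (NP220) at -0.01 ± 0.13. Zfp326, of the DBIRD complex that links messenger particles to RNA polymerase II, varied least of all 199 genes. Its CPM was 15.0, 16.5, 16.2 and 17.3 with hydrogel and 16.9, 15.7, 16.5 and 15.9 with antimiR-195, and its SD of log2 CPM over the 8 libraries was 0.06.

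**Figure D2:**
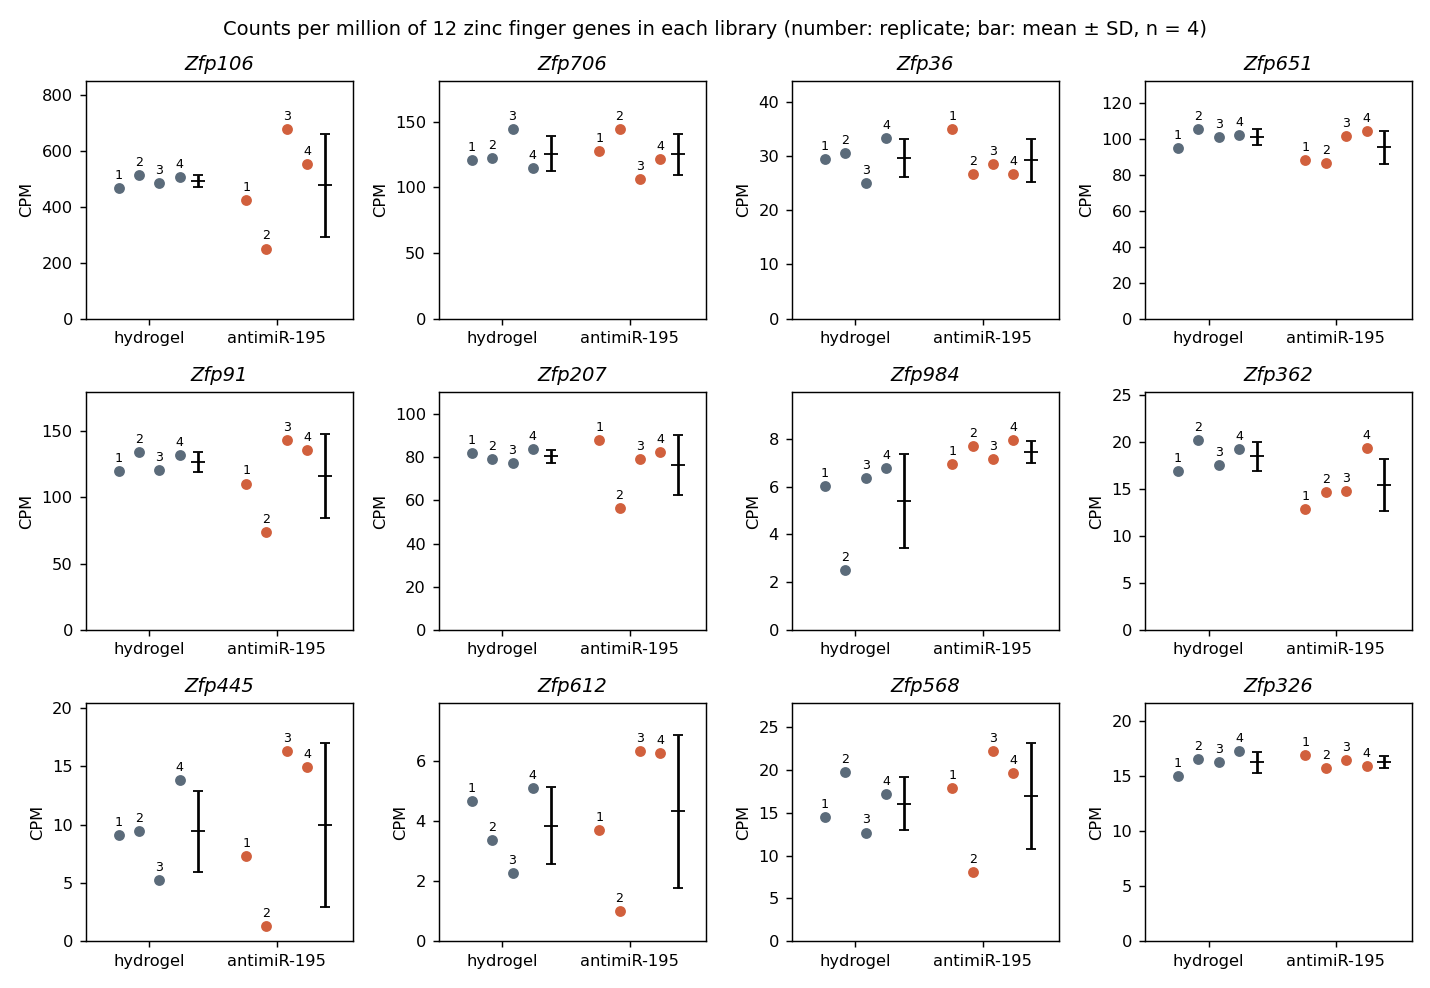
CPM (vertical axis, linear from 0) of 12 zinc finger genes in the 4 hydrogel and 4 antimiR-195 libraries, with replicate numbers at the points and mean ± SD at the right of each group. antimiR-195 replicate 2 is the lowest library for Zfp106, Zfp91, Zfp207, Zfp445, Zfp612 and Zfp568, while Zfp326 stays between 15.0 and 17.3 throughout.

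Of 29 listed transcription regulators outside the KRAB class, 23 were above the limit, 7 with positive and 16 with negative values (median -0.05, from -0.17 to 0.15), and none was called. antimiR-195 replicate 2 was the lowest library for 16 of the 23, and without it 12 were positive. Zfp91 had 119.6, 134, 121 and 132 CPM with hydrogel and 110.4, 73.5, 143 and 136 with antimiR-195, so that the drug group spanned the other on both sides (-0.13 ± 0.19). Zfp706 had 121, 122, 145 and 115 CPM against 128, 145, 106 and 122, which overlapped, with antimiR-195 replicate 3 the lowest of 8 (-0.01 ± 0.13). Zfp651 had 95, 106, 101 and 102 CPM against 88.2, 86.7, 102 and 105, with 2 antimiR-195 libraries below all hydrogel libraries (-0.08 ± 0.11). By mean RPKM, Zfp219 (7.54), Zfp410 (7.21, an activator of Chd4) and Zfp277 (6.69) were next in this list. Zfp148 (ZBP-89) was at 3.52 and Zfp143, an activator of many promoters, at 3.17. Zfp423, Zfp451, Zfp462, Zfp503, Zfp711 and Zfp750 were under the limit.

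Of 5 listed repressors of imprinted regions and retroelements, Zfp445, Zfp568 and Zfp809 were above the limit, Zfp57 had a mean RPKM of 0.760 and Zfp42 was listed at 0. Zfp445, which keeps imprints in the early embryo, had 9.10, 9.49, 5.22 and 13.8 CPM with hydrogel and 7.28, 1.26, 16.3 and 14.9 with antimiR-195. Its level in antimiR-195 replicate 2 was the lowest of 8 by a wide margin and in replicate 3 the highest, the largest spread of all 199 genes (SD of log2 CPM 1.17). The log2 fold change was 0.08 ± 0.56 with all libraries and 0.45 ± 0.31 without replicate 2, and it was -0.29 ± 0.66 by limma-trend on log2(RPKM + 0.1), so it has no stable sign. Zfp568, a repressor of a placental Igf2 transcript, had 14.5, 19.8, 12.7 and 17.2 CPM against 17.9, 8.04, 22.3 and 19.7. Here too replicate 2 was below and replicate 3 above all hydrogel libraries (0.08 ± 0.27, or 0.31 ± 0.15 without replicate 2). Zfp809, which silences proviruses through Trim28, had 5.92 to 7.11 CPM with hydrogel and 5.09 to 7.24 with antimiR-195 (-0.05 ± 0.16).

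Other wide spreads showed the same libraries. Zfp612 had 4.65, 3.37, 2.26 and 5.11 CPM with hydrogel and 3.70, 0.985, 6.34 and 6.27 with antimiR-195. Zfp526 had 4.28, 4.65, 2.86 and 4.50 against 4.20, 0.875, 5.33 and 5.81, and Zfp970 had 6.61, 7.68, 7.25 and 8.38 against 6.72, 1.70, 9.58 and 10.3. Replicate 2 of antimiR-195 was the lowest and replicates 3 and 4 were the highest libraries in all 3 genes, as also in Zfp317 (SD of log2 CPM 0.67). The fold changes of these genes carried SEs of 0.38 to 0.46 and the fold changes ranged from -0.08 to 0.17. Without antimiR-195 replicate 2 they were 0.50 ± 0.28 for Zfp612, 0.32 ± 0.20 for Zfp526, 0.24 ± 0.17 for Zfp970 and 0.38 ± 0.24 for Zfp317. At the other end, Zfp386, Zfp944, Zfp945 and Zfp467 had SDs of log2 CPM of 0.09 to 0.10 and fold changes of 0.01 to 0.09.

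Across the KRAB class the median log2 fold change was 0.01 with 41 of 78 positive, and across the others -0.03 with 42 of 121 positive. Without antimiR-195 replicate 2 these became 0.07 with 51 positive and 0.01 with 64 positive. The difference between the classes was not tested. Genes with a seed match for miR-195 had a median of -0.02 (28 of 70 positive) and those without a median of -0.02 (55 of 126 positive), while without replicate 2 the medians were 0.07 and 0.02. The 17 genes with 2 or more matches also stood at -0.02. Among the 8 genes with TGCTGCTA, the values were -0.26 ± 0.14 for Zfp362, -0.19 ± 0.16 for Zfp449, -0.10 ± 0.21 for Zfp715, -0.05 ± 0.25 for Zfp106, 0.01 ± 0.12 for Zfp467, 0.06 ± 0.22 for Zfp438, 0.07 ± 0.16 for Zfp622 and 0.09 ± 0.12 for Zfp507, none of which was called. Without antimiR-195 replicate 2 they were, in the same order, -0.25, -0.11, 0.08, 0.16, -0.02, 0.21, -0.09 and 0.12.

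**Figure D3:**
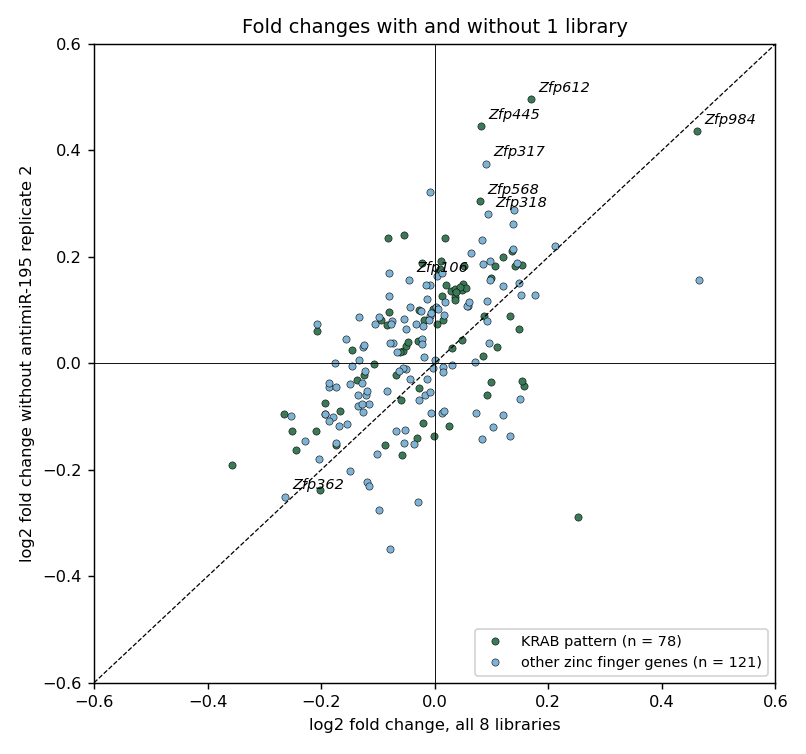
Log2 fold change of each zinc finger gene with all 8 libraries (horizontal axis) and without antimiR-195 replicate 2 (vertical axis), KRAB class in green and the others in blue, with the line of equal values dashed. Zfp612, Zfp445, Zfp317 and Zfp568 move up when the library is left out, while Zfp984 and Zfp362 stay close to the line.

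The largest pattern in these genes was between libraries and not between groups. After each gene's mean over the 8 libraries was subtracted, the median zinc finger gene stood at -0.30 (log2) in antimiR-195 replicate 2, against -0.01 over all genes tested. That library was the lowest of 8 for 114 of the 199 genes (57.3%, against 33.1% of all genes). antimiR-195 replicate 3 was the highest for 70 (35.2%, against 19.5%) with a median of 0.13. The medians were 0.10 in antimiR-195 replicate 4, 0.11 in hydrogel replicate 2, and between -0.01 and 0.01 in the other 4 libraries. Over all genes tested, the scaling between libraries tends to hold the median near zero. The mean log2 CPM of the zinc finger genes minus that of all genes was -0.73 in antimiR-195 replicate 2 and -0.49 to -0.34 in the other 7 libraries. Averaged over the group, the library medians were 0.03 ± 0.06 (SD, n = 4) for hydrogel and -0.02 ± 0.19 for antimiR-195, which overlap. Both classes took part, with medians in replicate 2 of -0.32 for KRAB genes and -0.27 for the others. The pattern was not particular to the well expressed genes. In the 106 tested genes with such symbols under the RPKM limit, the median was -0.23 in antimiR-195 replicate 2. It was 0.30 in antimiR-195 replicate 3 and 0.26 in hydrogel replicate 2.

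**Figure D4:**
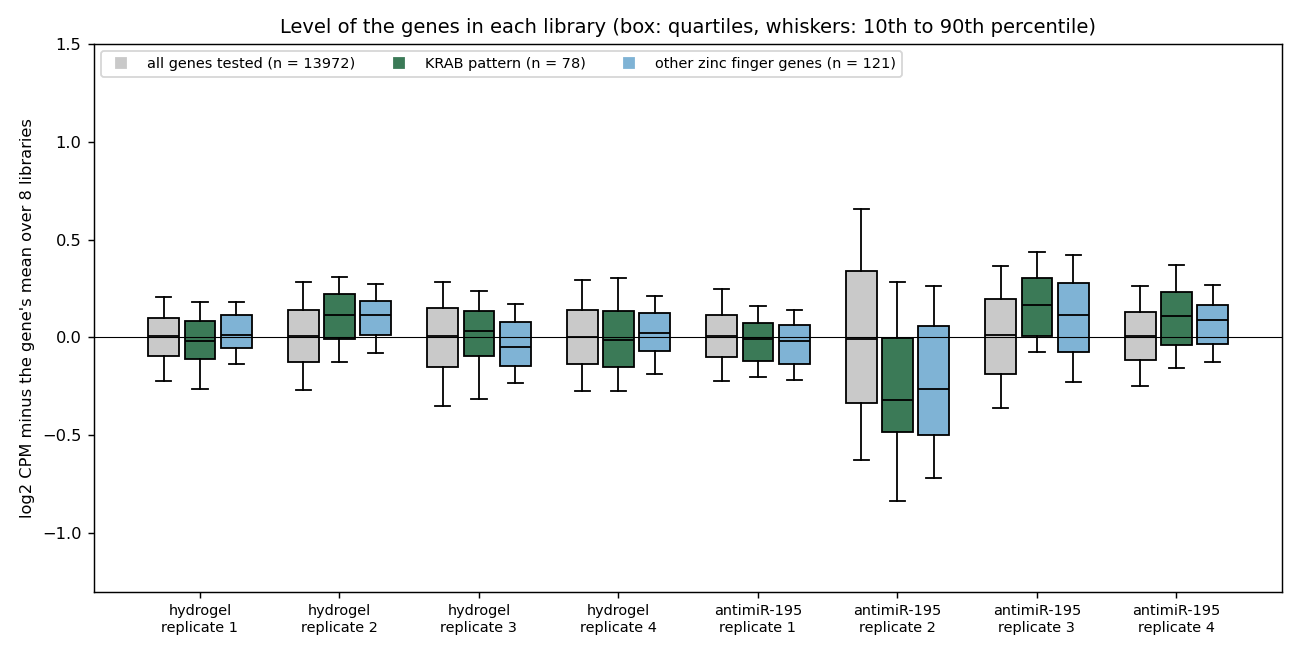
Log2 CPM minus the gene's mean over 8 libraries (vertical axis) in each library (horizontal axis), for all genes tested in grey, the KRAB class in green and the other zinc finger genes in blue, with quartile boxes, medians as lines and whiskers from the 10th to the 90th percentile. Both classes sit below zero in antimiR-195 replicate 2 (medians -0.32 and -0.27) and above it in antimiR-195 replicate 3 (0.17 and 0.11). The median over all genes tested stays near zero in each library, where the scaling between libraries tends to hold it.

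The drop in antimiR-195 replicate 2 was not even over the genes. It reached -1 or lower in 10 of them (5.03%, against 3.46% of all genes), led by Zfp445 (-2.55), Zfp526 (-1.93), Zfp970 (-1.89) and Zfp612 (-1.76). The deviation was 0.5 or more in 11 genes, led by Zfp688 (1.14), Zfp593 (0.91), Zfp637 (0.68), Zfp428 (0.60) and Zfp771 (0.58). By cluster, the values differed. In the cluster of 10 genes on chromosome 7, 9 were lowest in that library (median deviation -0.63), while the medians were 0.07 in the cluster of 6 at chr7:4915217-5053723 and 0.19 in that of 6 at chr7:127233061-127422068. The median Pearson correlation of log2 CPM over the 8 libraries was 0.27 over all 19701 pairs and 0.48 over the 122 pairs within clusters. Without antimiR-195 replicate 2 it was 0.12 over all pairs, and the value within clusters was not computed without that library. All pairs share the same libraries and their scaling.

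Gene length and base composition moved with this deviation. By the gene length implied by the deposited counts and RPKM, the median deviation in antimiR-195 replicate 2 was -0.05 in the 25 zinc finger genes under 2000 bases, -0.19 in the 77 from 2000 to 4000 and -0.35 in the 97 of 4000 or more. The same medians over all genes tested were 0.41, 0.05 and -0.21, each above the value for the zinc finger genes of that length. Across the 199 genes the correlation of the deviation with log2 length was r = -0.19 (Spearman's rho = -0.31), and across all genes r = -0.40 (rho = -0.46). By coding GC content, the median was -0.37 in the 69 zinc finger genes under 45%, -0.33 in the 64 from 45% to 55% and -0.17 in the 66 above, against -0.19, -0.06 and 0.09 over all tested coding genes. The correlation with coding GC was r = 0.23 across the 199 genes and 0.20 across all coding genes. Genes within a library share its depth and preparation and are not independent replicates, so these are descriptions.

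**Figure D5:**
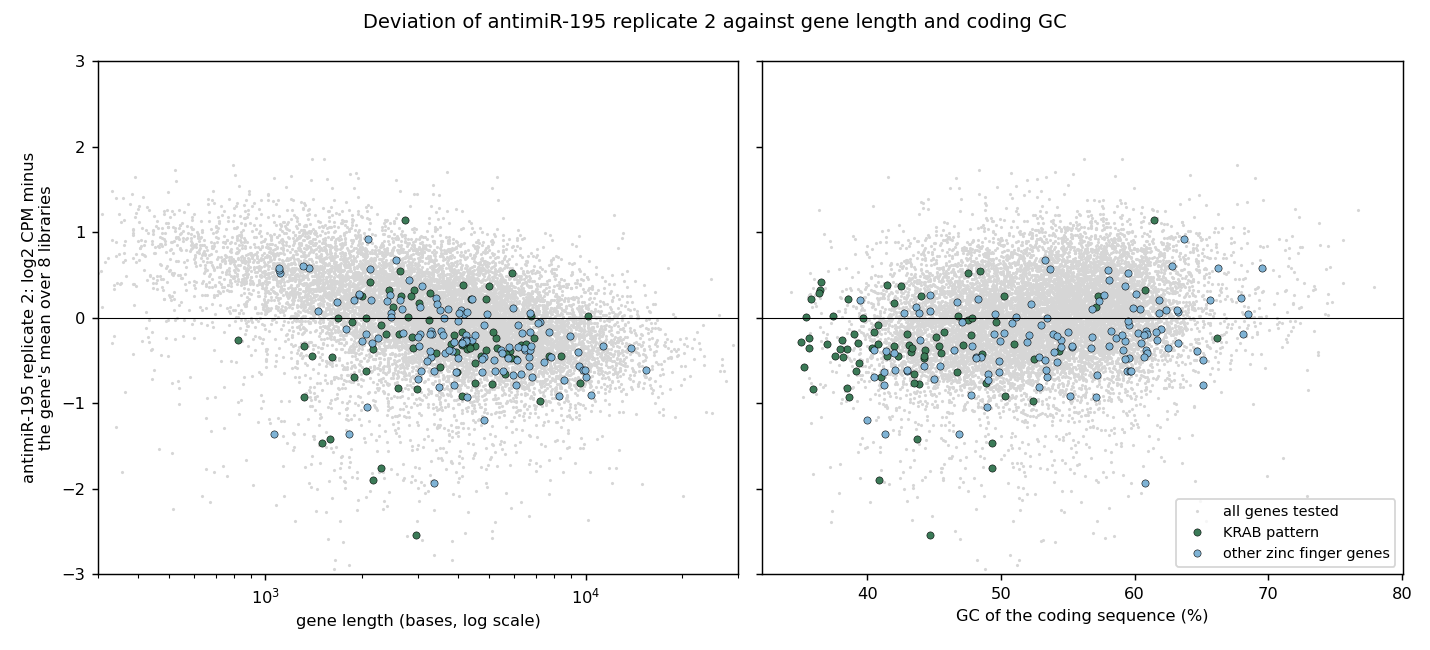
Deviation of antimiR-195 replicate 2 from the gene's mean over 8 libraries (vertical axis, log2 CPM) against gene length in bases on a log axis (left) and GC content of the coding sequence in percent (right), with all genes tested in grey, the KRAB class in green and the other zinc finger genes in blue. Zinc finger genes of 4000 bases or more have a median of -0.35, against -0.05 for those under 2000.

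The same library stood out in other measures. Its share of alignment records at multiple places was 47.8%, against 42.1% to 44.5% in the others, and its ambiguous share was 1.05%, against 0.772% to 0.897%. The 5 neutrophil markers summed to 69.1 CPM in it, against 26.0 to 31.8 with hydrogel and 23.3 in the lowest antimiR-195 library, and the 5 endothelial markers were at their lowest, 515 CPM, against 547 to 719 with hydrogel. The summed markers of cardiomyocytes (86608), fibroblasts (8111), macrophages and monocytes (2110.2), T and B cells (2.30), proliferating cells (99.8) and red cells (1529) were at their highest of 8 in it. In the same order, the highest hydrogel library had 83447, 7946, 1981, 1.89, 85.2 and 1192 CPM. Only 1 of the 4 T and B cell markers passed the filter on low counts. The part of length, base composition, mapping and cell content in the zinc finger pattern was not tested.

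The co-repressor genes that serve the KRAB class were expressed as well. Of 36 listed genes 35 were found and tested, 32 had a mean RPKM of at least 1, and 0 were called, with 0 at an unadjusted p below 0.05 in edgeR (16 positive, 19 negative, median -0.02). Trim28 had 74.3, 82.7, 73.9 and 75.3 CPM with hydrogel and 85.7, 106, 74.5 and 78.6 with antimiR-195, where replicate 2 was the highest library of 8 and replicate 3 lay among the hydrogel libraries (0.17 ± 0.13, or 0.05 ± 0.09 without replicate 2). Setdb1 had 17.7, 17.8, 15.8 and 18.5 CPM against 19.7, 11.1, 23.3 and 20.5. In this gene 3 antimiR-195 libraries were above all hydrogel libraries and replicate 2 was below them (0.09 ± 0.20, edgeR unadjusted p = 0.641). Without replicate 2 its log2 fold change was 0.27 ± 0.11 (edgeR unadjusted p = 0.0302), with 0 genes called after adjustment. In that run 1 of the 35 co-repressor genes had an unadjusted p below 0.05, against 260 of all 14107 genes (1.84%). Chd3 of the NuRD complex stood at -0.32 ± 0.16, its partner Gatad2a at 0.15 ± 0.09 and the DNA methyltransferase Dnmt3b at -0.27 ± 0.20, the last at a mean RPKM of 0.346.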

How the data were processed

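RNA from 8 left ventricle libraries was prepared with a TruSeq stranded mRNA kit, per the labels' protocols. Alignment tool, counter, test and build are named per the submitters' processing notes as STAR, HTSeq, DESeq and GRCm38, without versions. Neither the annotation release nor the strand setting is given in the sources used here. Deposited counts are whole reads per gene from HTSeq, and the RPKM values were deposited by the authors in a series table. Counts in the series table and library files differed in 0 cells. Lines without a gene (6.38% to 7.55% no feature, 0.772% to 1.05% ambiguous) were left out. Symbols, spans and coding sequences came from GENCODE M21, which named 36429 of 38293 identifiers.

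Counts passing filterByExpr were scaled by TMM and tested with edgeR 4.0.16 (R 4.3.3) in all 8 libraries, with no covariate. Log2 CPM used a prior count of 2. The test was checked on simulated data. limma 3.58.1 and DESeq2 1.42.0 were alternatives, besides other scaling, no filter, other RPKM limits (0.5 and 2) and leaving out each library. Replicate numbers follow accession order. Genes were named by rule: the 10 most abundant, the 8 per direction of smallest p, those at the RPKM limit, role lists, 8-base seed matches, 5 co-repressors, and the 5 of largest and smallest spread. Zfp27, Zfp142 and genes named for clusters or for deviation in antimiR-195 replicate 2 were named after their values were seen. Members and lists were chosen with earlier results of these data known, and the splits by length and GC were chosen after seeing the data.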

Additional observations from a re-analysis of the deposited data

Results flagged for a closer look

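In groups of 4 libraries, a library far from the other 3 was sought by Dixon's ratio at its 95% critical value, which chance exceeds in about 1 of 20 groups. It was exceeded in 22 of the 398 groups of the 199 zinc finger genes (5.53%), 7 with hydrogel and 15 with antimiR-195, of which 9 were low and 4 high values in antimiR-195 replicate 2. Among the genes named, Zfp638 had 22.8 CPM in antimiR-195 replicate 2, against 31.8 to 32.6 in the other 3 libraries of its group. Zfp740 had 34.7 CPM in hydrogel replicate 3, against 39.7 to 40.6. Zfp3 had 7.02 CPM in hydrogel replicate 3, against 5.98 to 6.11. Zfp944 had 9.36 CPM in antimiR-195 replicate 1, against 7.92 to 8.15. The co-repressor gene Trim28 had 82.7 CPM in hydrogel replicate 2, against 73.9 to 75.3.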

How the results depend on the processing

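No paired analysis was run, since the labels name nothing that pairs a hydrogel library with an antimiR-195 library. No zinc finger gene, co-repressor gene or gene of any kind was called under any alternative run, and the count of positive fold changes among the 199 ran from 56 to 115. The level of the zinc finger genes in antimiR-195 replicate 2 against the other 7 libraries was -0.31, and -0.35 to -0.23 under other scales and RPKM limits, which were chosen after seeing the data, as were the values by class and role without that library. On leaving out 1 library at a time the median log2 fold change of the zinc finger genes ran from -0.08 to 0.04, with a sign change without antimiR-195 replicate 2 and without hydrogel replicate 2. Of 49 genes named by rule whose fold change was followed over the settings, 26 kept their sign in every setting and 23 did not. Zfp27 was not among the 49. By limma-trend on log2(RPKM + 0.1) the values were 0.02 for Zfp706, 0.01 for Zfp36, 0.001 for Zfp639, -0.07 for Zfp317, -0.03 for Zfp612, -0.29 for Zfp445 and 0.01 for Zfp638. On log2(RPKM + 1) they were 0.02 for Zfp706, 0.005 for Zfp36, 0.001 for Zfp639, -0.01 for Zfp317, -0.11 for Zfp445 and 0.01 for Zfp638. With no filter Zfp326 was at -0.005. Leaving out 1 library gave ranges that crossed zero: -0.27 to 0.16 for Zfp106, -0.15 to 0.04 for Zfp207, -0.15 to 0.38 for Zfp317, -0.05 to 0.03 for Zfp326, -0.05 to 0.09 for Zfp346, -0.12 to 0.04 for Zfp36, -0.01 to 0.07 for Zfp386, -0.06 to 0.21 for Zfp438, -0.26 to 0.45 for Zfp445, -0.04 to 0.06 for Zfp467, -0.24 to 0.32 for Zfp526, -0.08 to 0.31 for Zfp568, -0.08 to 0.50 for Zfp612, -0.09 to 0.16 for Zfp622, -0.06 to 0.09 for Zfp638, -0.07 to 0.02 for Zfp639, -0.09 to 0.07 for Zfp706, -0.25 to 0.08 for Zfp715, -0.12 to 0.28 for Zfp771, -0.12 to 0.03 for Zfp809, -0.25 to 0.03 for Zfp91, -0.33 to 0.24 for Zfp970 and -0.03 to 0.27 for Setdb1. The cause was not tested. The number of genes at an unadjusted p below 0.05 was 428 of 22669 with no filter, and ran from 104 to 352 on leaving out 1 library. Without antimiR-195 replicate 3, 2 of the 199 zinc finger genes were under that value, against 352 of all 14132 genes tested. Without antimiR-195 replicate 4 it was 1 of the 199, against 335 of 14120. The fewest reads of a zinc finger gene in any library were 9, which limits the precision of such values.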
